A study of Mus musculus with 12 samples.

Results

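The genes described here are the TRIM family as the array names it: every probe set whose gene symbol is Trim followed by a number and at most 1 lower-case letter. This rule gave 67 genes, each with 1 probe set, of the 24675 genes with a name on the array. They were measured in bone marrow-derived macrophages, primary cells grown from the marrow of wild-type mice 8 to 10 weeks old for 7 days in medium with 30% L cell-conditioned medium, which supplies M-CSF, then seeded in 15% of it and kept in DMEM alone for 1 h. The cells then received PBS, the carrier, or hepcidin, the liver peptide hormone that binds the iron exporter ferroportin, for 1 h or 3 h. Each of the 4 groups (PBS 1 h, hepcidin 1 h, PBS 3 h and hepcidin 3 h) held 3 arrays, 12 in all. The labels disagree on the dose of hepcidin: one protocol has 1 µg/ml and another, which speaks of 1 h only, has 10 µg/ml. No strain or genotype beyond wild type is labelled, and nothing says that replicates came from separate animals or cultures, so the p-values below rest on the spread among these arrays alone, and that spread may be purely technical.

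TRIM proteins are named for a tripartite motif of a RING finger, B-box zinc fingers and a coiled coil, and most act as E3 ubiquitin ligases, with a variable carboxy-terminal domain that chooses the target. In macrophages many of them tune innate immunity: some place ubiquitin chains on RNA and DNA sensors or on their adaptors and kinases, and others bind viral capsids or antibody-coated particles in the cytosol. A number of TRIM genes are themselves switched on by interferon through the interferon-stimulated response element (ISRE), while a κB site is what NF-κB proteins bind.

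Of the 67 genes, 52 had a promoter window in the RefSeq table (GRCm38.p6), from 250 bases before to 50 after an annotated start, 66 windows in all. Trim14, Trim16 and Trim65 were among the 15 without one. Each window was searched on both strands for 3 motifs: a κB consensus, an ISRE core GAAANNGAA and a GAS core TTCNNNGAA, the element bound by STAT dimers. The κB consensus was found in 5 of the 66 windows (7.58%), against 8.46% of all 32851 windows in the table. The ISRE core was found in 12 of 66 (18.2%), against 8.56% of all windows, and the GAS core in 7 of 66 (10.6%), against 8.3%. No match to 1 motif overlapped a match to another in these windows. A match describes letters only, not a bound site.

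Trim13, whose signal differed most between hepcidin and PBS, had a κB match across its start, and Trim25, which fell at 3 h, had an ISRE core at its start. The other genes with a κB match, Trim7, Trim28, Trim43a and Trim46, passed the threshold used below in no comparison. A link between motif and change was not tested. The 250 bases before the starts of Trim13 and Trim25 are shown with the bases of the match that lie there in capitals.
Trim13, chr14:61597976-61598225, plus strand: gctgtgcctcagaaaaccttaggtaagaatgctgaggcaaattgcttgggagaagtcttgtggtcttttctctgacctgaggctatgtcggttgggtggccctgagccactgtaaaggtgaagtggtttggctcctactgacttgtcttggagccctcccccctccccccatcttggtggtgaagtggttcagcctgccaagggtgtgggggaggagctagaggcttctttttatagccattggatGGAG
Trim25, chr11:88999153-88999402, plus strand: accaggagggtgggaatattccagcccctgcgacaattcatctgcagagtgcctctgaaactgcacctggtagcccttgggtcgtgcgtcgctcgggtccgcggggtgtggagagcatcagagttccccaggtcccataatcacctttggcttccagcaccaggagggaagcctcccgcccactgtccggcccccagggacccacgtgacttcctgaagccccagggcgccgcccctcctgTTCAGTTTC

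The whole matches follow as 30-base stretches, with the match in capitals; those of the chromosome 7 genes are shown so that close copies can be compared. Of the 11 genes with an ISRE core, 7 lie on chromosome 7: Trim5, Trim12a, Trim12c, Trim30a, Trim30d and Trim34a in their cluster, and Trim21. Trim30a also had the core at a further annotated start (chr7:104446104-104446133), not printed. The share of 18.2% counts each window, so close copies and repeated starts enter it separately.
Trim13, chr14:61598212-61598241, plus strand: gccattggatGGAGGCCCCCactcctttgt
Trim25, chr11:88999383-88999412, plus strand: cgcccctcctgTTCAGTTTCgattccttcc
Trim21, chr7:102565451-102565480, minus strand: gcctctgagagGAAACTGAAAGTGAAattt
Trim30a, chr7:104465210-104465239, minus strand: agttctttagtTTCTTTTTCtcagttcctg
Trim30d, chr7:104507871-104507900, minus strand: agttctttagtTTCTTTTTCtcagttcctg
Trim5, chr7:104288136-104288165, minus strand: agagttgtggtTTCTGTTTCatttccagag
Trim12a, chr7:104315466-104315495, minus strand: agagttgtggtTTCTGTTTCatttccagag
Trim12c, chr7:104353359-104353388, minus strand: agagttgtggtTTCTGTTTCatttccagct
Trim34a, chr7:104244457-104244486, plus strand: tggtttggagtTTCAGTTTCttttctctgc
The printed stretches of Trim30a and Trim30d were the same letter for letter, as were those of Trim5 and Trim12a, and Trim21 held 2 overlapping matches. Such close copies can share probe sequence, so the signals of the chromosome 7 genes may not be fully separate.

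The values are the deposited log2 signals. Array medians lay between 4.84 and 4.94, and arrays correlated at 0.994 to 0.997 within groups and 0.988 to 0.996 between them across genes. All 7 macrophage markers (among them Csf1r, Adgre1 and Cd68) lay above the median gene, with a mean level over the list of 10.9 to 11.02 on the PBS 1 h arrays, 10.87 to 11.07 on the hepcidin 1 h arrays, 10.82 to 11.0 on the PBS 3 h arrays and 10.63 to 10.85 on the hepcidin 3 h arrays. Of the markers of other cell types, 2 of 6 neutrophil genes (Mpo and Elane), 2 of 5 fibroblast genes (Col1a1 and Col1a2) and 1 of 4 mast cell genes (Kit) lay above it, and none of 5 dendritic, 7 lymphocyte and 3 erythroid genes did. Of the macrophage markers, Mertk fell at 3 h against PBS (-1.08, adjusted p = 0.00375) and between the hepcidin groups (-1.28, adjusted p = 0.00141), and Fcgr1 fell between the hepcidin groups (-0.60, adjusted p = 0.0211). No marker of another cell type passed the limma threshold between hepcidin and PBS at either time; Mpo (-0.62, adjusted p = 0.0274) and Kit (-0.73, adjusted p = 0.000126) fell between the hepcidin groups. The 5 fibroblast genes had a median difference of 0.283 between hepcidin and PBS at 3 h, against 0.0159 over all genes, and a mean level of 4.62 to 4.81 on the PBS arrays and 4.76 to 5.03 on the hepcidin arrays at that time. Their part in the results was not tested. Because the RNA came from whole wells, fewer cells of a type and less RNA per cell cannot be told apart.

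Among the TRIM genes, 35 probe sets lay above their array's median on all 12 arrays, 26 lay below it on all 12, and 6 crossed it. Signal on such arrays also depends on the probes, so this says where each probe set could show a change, not how abundant its transcript was. By mean signal, 17 of 20 TRIM regulators of innate signalling lay above the median gene, as did 4 of 7 microtubule-binding or NHL-repeat TRIMs of neurons and embryo, 1 of 4 muscle TRIMs and 1 of 14 TRIMs known mainly from germ cells, gut or red cells. The standard error of a difference between 2 groups had a median of 0.10 over the TRIM genes, and ranged from 0.06 to 0.27 for Trim59.

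Hepcidin for 1 h was set against PBS for 1 h to show the first response. Trim13 rose, and it alone of the 67 genes passed the threshold, an adjusted p under 0.05 in limma (a linear model with a shared estimate of spread) over all 24675 genes. That is 1.49% of the TRIM genes, against 0.527% of all genes higher in hepcidin at 1 h. No TRIM gene passed in the other direction, against 0.0324% of all genes. At an unadjusted p under 0.05 there were 4 (5.97%; Trim13, Trim40, Trim46 and Trim60), against 6.82% of all genes, a share close to the background. The hepcidin and PBS arrays did not overlap for 7 TRIM genes (10.4%), against 12.3% of all genes. Over the 67 genes the median difference was -0.0283, with 25 higher and 42 lower, and over all genes it was -0.00225.

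Hepcidin for 3 h was set against PBS for 3 h to show the later response. Trim13 was again higher, and Trim14, Trim16, Trim25 and Trim65 fell, each by 1.26-fold to 1.53-fold. The 1 gene that rose is 1.49% of the TRIM genes, against 2.8% of all genes higher at 3 h, and the 4 that fell are 5.97%, against 2.53% of all genes lower. The arrays of the 2 groups did not overlap for 17 TRIM genes (25.4%), against 21.7% of all genes. The median difference was -0.022 over the TRIM genes, with 31 higher and 36 lower, and 0.0159 over all genes. A difference beyond 0.25 on the log2 scale was seen for 13 TRIM genes (19.4%) at 3 h, against 13.8% of all genes, and for 3 (4.48%) at 1 h, against 6.12% of all genes.

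**Figure D1:**
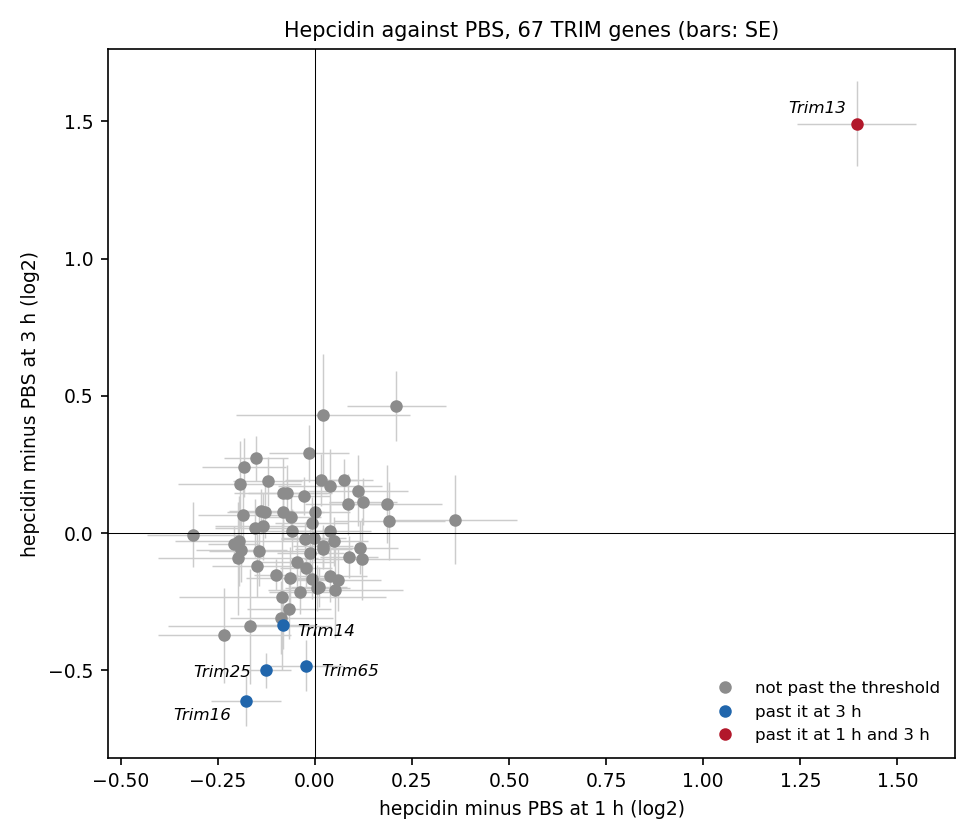
Hepcidin minus PBS at 1 h (x axis, log2) against the same at 3 h (y axis, log2) for the 67 TRIM genes, 1 point a gene, with bars for the standard error of limma's fit; each time has its own PBS arrays. Trim13 stands alone at 1.39 and 1.49, and the 4 genes that passed at 3 h only, Trim14, Trim16, Trim25 and Trim65, lie below 0 on the y axis at -0.34 to -0.61.

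Time alone was read from PBS for 3 h against PBS for 1 h. No TRIM gene passed in limma, against 0.45% of all genes, and 9 had an unadjusted p under 0.05 (13.4%), against 10.6% of all genes. The 2 PBS groups did not overlap for 16 TRIM genes (23.9%), against 17.7% of all genes, and the largest differences were those of Trim30a (-0.49, adjusted p = 0.29) and Trim47 (-0.39, adjusted p = 0.25). The unmoderated linear model also called none, while a trended and robust prior called 1, Trim21, as did a fit of only genes above the median mean. Leaving out hepcidin 1 h replicate 1, which changes only the estimate of spread, also called 1.

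Between the hepcidin groups, 3 h against 1 h, Trim21 and Trim56 rose and Trim16, Trim24, Trim25 and Trim65 fell. The 2 that rose are 2.99% of the TRIM genes, against 2.44% of all genes higher, and the 4 that fell are 5.97%, against 2.61% of all genes lower. Arrays did not overlap for 16 TRIM genes (23.9%), against 20.1% of all genes. This comparison has no PBS arrays in it, so it holds time and hepcidin together. The count fell from 6 to 2, Trim21 and Trim25, without hepcidin 1 h replicate 2 or 3 or hepcidin 3 h replicate 2 or 3, and in a fit of these 2 groups alone.

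The difference of the hepcidin effect, 3 h minus 1 h, was tested as an interaction term. No TRIM gene passed in limma, against 1.03% of all genes, and 6 had an unadjusted p under 0.05 (8.96%; Trim16, Trim25, Trim27, Trim54, Trim56 and Trim65), against 10.1% of all genes. So the calls at 3 h but not at 1 h do not show that the effects differed between the times. Trim65 (-0.46, SE 0.13, adjusted p = 0.176) and Trim16 (-0.43, SE 0.13, adjusted p = 0.202) had the largest differences. Trim25 (-0.37, SE 0.09, adjusted p = 0.0974) had the smallest adjusted p, and it was the 1 gene called with a trended and robust prior, with an unmoderated model and with only genes above the median mean.

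Trim13 encodes a ligase anchored in the membrane of the endoplasmic reticulum, where it takes part in the degradation of misfolded proteins. Its signal was 5.50, 5.49 and 5.84 in replicates 1, 2 and 3 of PBS at 1 h, and 7.24, 6.99 and 6.80 in hepcidin at 1 h. At 3 h it was 5.56, 5.75 and 5.27 in PBS and 6.88, 7.25 and 6.92 in hepcidin. All 6 hepcidin arrays lay above all 6 PBS arrays. Hepcidin raised it 2.63-fold at 1 h (log2 difference 1.39, SE 0.15, 95% interval 1.06 to 1.73, adjusted p = 0.000427) and 2.81-fold at 3 h (1.49, SE 0.15, 95% interval 1.16 to 1.83, adjusted p = 6.83e-05). The 2 effects differed by 0.10 (95% interval -0.38 to 0.57, adjusted p = 0.932). PBS alone moved it by -0.09 from 1 h to 3 h (adjusted p = 0.929).

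In the RefSeq annotation the span of Trim13 overlaps Kcnrg, which encodes a regulator of potassium channels, and the long noncoding RNA Dleu2. The probe set of Dleu2 differed by 0.01 at 1 h (adjusted p = 0.996) and by -0.10 at 3 h (adjusted p = 0.672). Kcnrg, below the array median on every array, differed by 0.19 at 1 h (adjusted p = 0.713) and rose by 0.32 at 3 h (SE 0.09, adjusted p = 0.0489). That call was lost in 14 of 18 alternatives, 10 of them fits without 1 array (any of the 1 h groups, PBS 3 h replicate 1 or 3, hepcidin 3 h replicate 2 or 3; adjusted p 0.0518 to 0.17). The spans of Trim25 and Trim14 each overlap a long noncoding RNA, Gm11496 and Gm16731, which differed by 0.22 and 0.02 at 3 h (adjusted p = 0.342 and 0.947).

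The ligases of RNA sensing follow. Trim25 places ubiquitin chains on the RNA sensor RIG-I. Its signal was 9.99, 10.08 and 10.07 in PBS at 1 h, 9.88, 9.90 and 9.97 in hepcidin at 1 h, 9.92, 9.91 and 9.97 in PBS at 3 h, and 9.38, 9.53 and 9.40 in hepcidin at 3 h. The 3 h hepcidin arrays were the lowest 3 of the 12, and hepcidin also lay below PBS at 1 h without overlap. It fell 1.41-fold at 3 h (-0.50, SE 0.06, adjusted p = 0.000454), while the difference at 1 h was -0.13 (SE 0.06, adjusted p = 0.782). Between the hepcidin groups it fell 1.4-fold (-0.48, adjusted p = 0.000812), and between the PBS groups it differed by -0.11 (adjusted p = 0.64).

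Trim65 is a ligase for MDA5, the other cytosolic sensor of long viral RNA. Its signal was 7.89, 7.93 and 8.13 in PBS at 1 h, 7.86, 8.04 and 8.00 in hepcidin at 1 h, 8.11, 7.97 and 8.16 in PBS at 3 h, and 7.69, 7.65 and 7.45 in hepcidin at 3 h. Here too the 3 h hepcidin arrays were the lowest of the 12, and at 1 h the groups overlapped. It fell 1.4-fold at 3 h (-0.48, SE 0.09, adjusted p = 0.00816), and the 1 h difference was -0.02 (adjusted p = 0.994). Between the hepcidin groups it fell by 0.37 on the log2 scale (adjusted p = 0.0393), a call lost without any 1 of 7 arrays (PBS 1 h replicate 2, hepcidin 1 h replicate 2 or 3, PBS 3 h replicate 1 or 3, hepcidin 3 h replicate 2 or 3; adjusted p 0.0515 to 0.15).

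Trim14 lacks a RING finger and acts as an adaptor in signalling from mitochondria downstream of these sensors. Its signal was 8.22, 8.49 and 8.49 in PBS at 1 h, 8.23, 8.38 and 8.34 in hepcidin at 1 h, 8.50, 8.59 and 8.49 in PBS at 3 h, and 8.11, 8.20 and 8.27 in hepcidin at 3 h. The groups overlapped at 1 h and not at 3 h. The fall at 3 h was 1.26-fold (-0.34, SE 0.09, adjusted p = 0.0396), against a difference of -0.08 at 1 h (adjusted p = 0.934). This call was lost without any 1 of the 6 arrays of the 3 h groups and without hepcidin 1 h replicate 2 or 3 (adjusted p 0.0536 to 0.15; 0.0154 to 0.15 over all alternatives).

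Trim21 and Trim56 act at antibody and DNA sensing: Trim21 is a cytosolic antibody receptor, and Trim56 is a ligase tied to the cGAS and STING pathway. Trim21 read 7.47, 7.49 and 7.55 in PBS at 1 h, 7.42, 7.60 and 7.71 in hepcidin at 1 h, 7.85, 7.86 and 7.82 in PBS at 3 h, and 8.06, 8.05 and 8.00 in hepcidin at 3 h. Both 3 h groups lay above both 1 h groups, and at 3 h hepcidin lay above PBS without overlap. It rose 1.37-fold between the hepcidin groups (0.46, SE 0.07, adjusted p = 0.00321), and the difference between the PBS groups was 0.34 (SE 0.07, adjusted p = 0.0826). The interaction, which is also the difference between these values, was 0.12 (95% interval -0.11 to 0.35, adjusted p = 0.776). Against PBS the hepcidin difference was 0.08 at 1 h (adjusted p = 0.933) and 0.19 at 3 h (SE 0.07, adjusted p = 0.194).

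Trim56 read 7.79, 7.52 and 7.70 in PBS at 1 h, 7.50, 7.47 and 7.57 in hepcidin at 1 h, 7.55, 7.60 and 7.57 in PBS at 3 h, and 7.71, 7.86 and 7.96 in hepcidin at 3 h. The 3 h hepcidin arrays lay above the 1 h hepcidin and 3 h PBS arrays, and overlapped the 1 h PBS arrays. It rose 1.25-fold between the hepcidin groups (0.33, SE 0.08, adjusted p = 0.0422), and against PBS the difference was -0.15 at 1 h (adjusted p = 0.811) and 0.27 at 3 h (SE 0.08, adjusted p = 0.0904; 0.0484 without hepcidin 3 h replicate 1). The call was lost without any 1 of 9 arrays (PBS 1 h replicate 3, any hepcidin 1 h or PBS 3 h replicate, hepcidin 3 h replicate 2 or 3; adjusted p 0.0574 to 0.154).

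**Figure D2:**
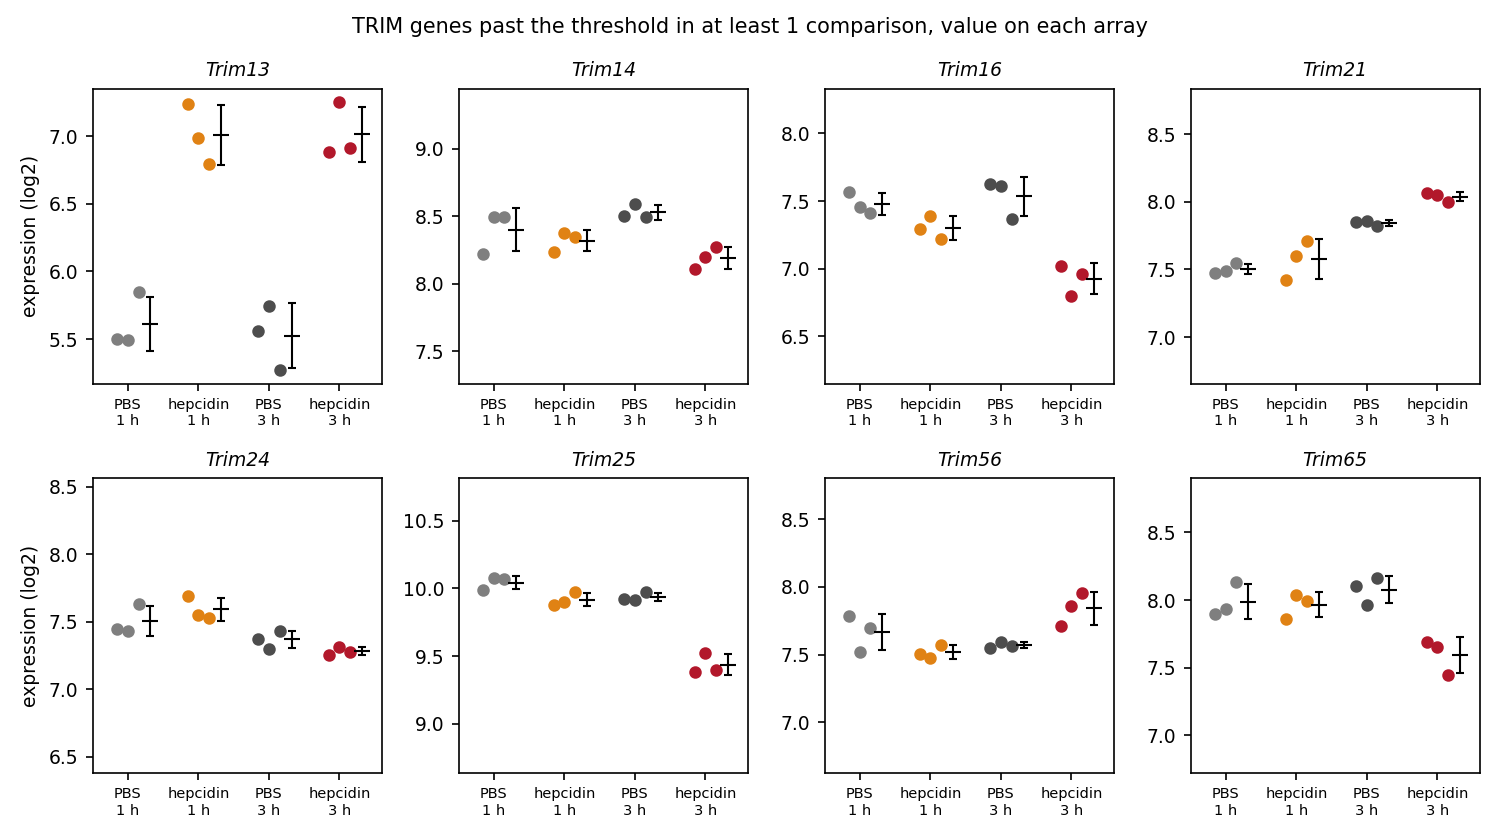
Log2 signal on each array for the 8 TRIM genes past the limma threshold in at least 1 comparison, by group; points are arrays, and bars the group mean with its SD. Each panel has its own axis; hepcidin arrays of Trim13 lie at 6.80 to 7.25 and its PBS arrays at 5.27 to 5.84, and the 3 h hepcidin arrays are the lowest for Trim16, Trim25 and Trim65.

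Among the other regulators of innate signalling, Trim8, a ligase that acts on the kinase TAK1 and on cytokine signalling, read 8.98, 9.03 and 8.99 in PBS at 1 h, 8.93, 8.87 and 8.90 in hepcidin at 1 h, 9.09, 9.09 and 9.11 in PBS at 3 h, and 8.93, 8.97 and 8.95 in hepcidin at 3 h. Hepcidin lay below PBS without overlap at both times, by -0.10 at 1 h (SE 0.06, adjusted p = 0.819) and -0.15 at 3 h (SE 0.06, adjusted p = 0.174; 0.00327 with an unmoderated model), neither past the threshold in the moderated fit. Trim32, a ligase with NHL repeats that acts on the adaptor STING and in muscle, read 5.34, 5.23 and 5.36 in PBS at 1 h, 5.22, 5.35 and 5.25 in hepcidin at 1 h, 5.47, 5.55 and 5.63 in PBS at 3 h, and 5.43, 5.19 and 5.38 in hepcidin at 3 h. The 3 h PBS arrays stood highest, and the hepcidin difference was -0.04 at 1 h (adjusted p = 0.984) and -0.22 at 3 h (SE 0.08, adjusted p = 0.178). Of all 20 regulators, 1 rose at 1 h and none fell, 1 rose and 3 fell at 3 h, and the medians were -0.0186 and -0.0355, beside shares over all genes of 0.527% higher and 0.0324% lower at 1 h and 2.8% higher and 2.53% lower at 3 h, and medians of -0.00225 and 0.0159. The 16 that passed in neither comparison with PBS differed by -0.31 (Trim40) to 0.19 (Trim31) at 1 h and by -0.23 (Trim59) to 0.29 (Trim35) at 3 h.

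The chromosome 7 cluster holds restriction factors and their relatives: Trim5 and Trim12 encode proteins related to the capsid-binding factor TRIM5, and Trim30a restrains signalling from Toll-like receptors. None of the 9 members measured passed in any of the 5 comparisons as fitted here, although Trim30a did under some alternatives given with its values, and Trim34b was not analysed here. The median over the 9 was -0.0864 at 1 h, with 6 lower, and -0.206 at 3 h, with 7 lower. Over all genes it was -0.00225 and 0.0159. By mean signal, 5 of the 9 lay above the median gene. Trim30c, whose value was the 3 h median, lay below the array median on every array. Trim30a read 8.68, 8.69 and 8.60 in PBS at 1 h, 8.15, 8.73 and 8.38 in hepcidin at 1 h, 8.18, 8.32 and 7.98 in PBS at 3 h, and 8.15, 7.78 and 7.44 in hepcidin at 3 h. Its groups overlapped under both comparisons with PBS, and both 3 h groups lay at or below 8.32. The hepcidin difference was -0.23 at 1 h (SE 0.17, adjusted p = 0.891) and -0.37 at 3 h (SE 0.17, adjusted p = 0.302). Between the hepcidin groups it was -0.63 (SE 0.17, adjusted p = 0.0583), the smallest adjusted p of the cluster. Trim30a passed there with the replicate number as a block (adjusted p = 0.0435), with a trended and robust prior (0.0324), with only genes above the median mean (0.0335), and without replicate 1 of hepcidin at 1 h (0.0371) or at 3 h (0.0166).

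Trim30d, its close copy, differed by -0.53 between the hepcidin groups (adjusted p = 0.21) and by -0.34 between hepcidin and PBS at 3 h (SE 0.21, adjusted p = 0.465). Trim12a differed by -0.31 at 3 h (SE 0.13, adjusted p = 0.253) and Trim34a by -0.28 (SE 0.11, adjusted p = 0.2). Trim5 read 4.57, 4.62 and 4.74 in PBS at 1 h, 4.61, 4.17 and 4.57 in hepcidin at 1 h, 4.12, 4.60 and 4.81 in PBS at 3 h, and 4.30, 4.60 and 4.54 in hepcidin at 3 h. It lay below the array median on all 12 arrays, with all groups overlapping and differences of -0.20 at 1 h (adjusted p = 0.912) and -0.03 at 3 h (adjusted p = 0.953).

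**Figure D3:**
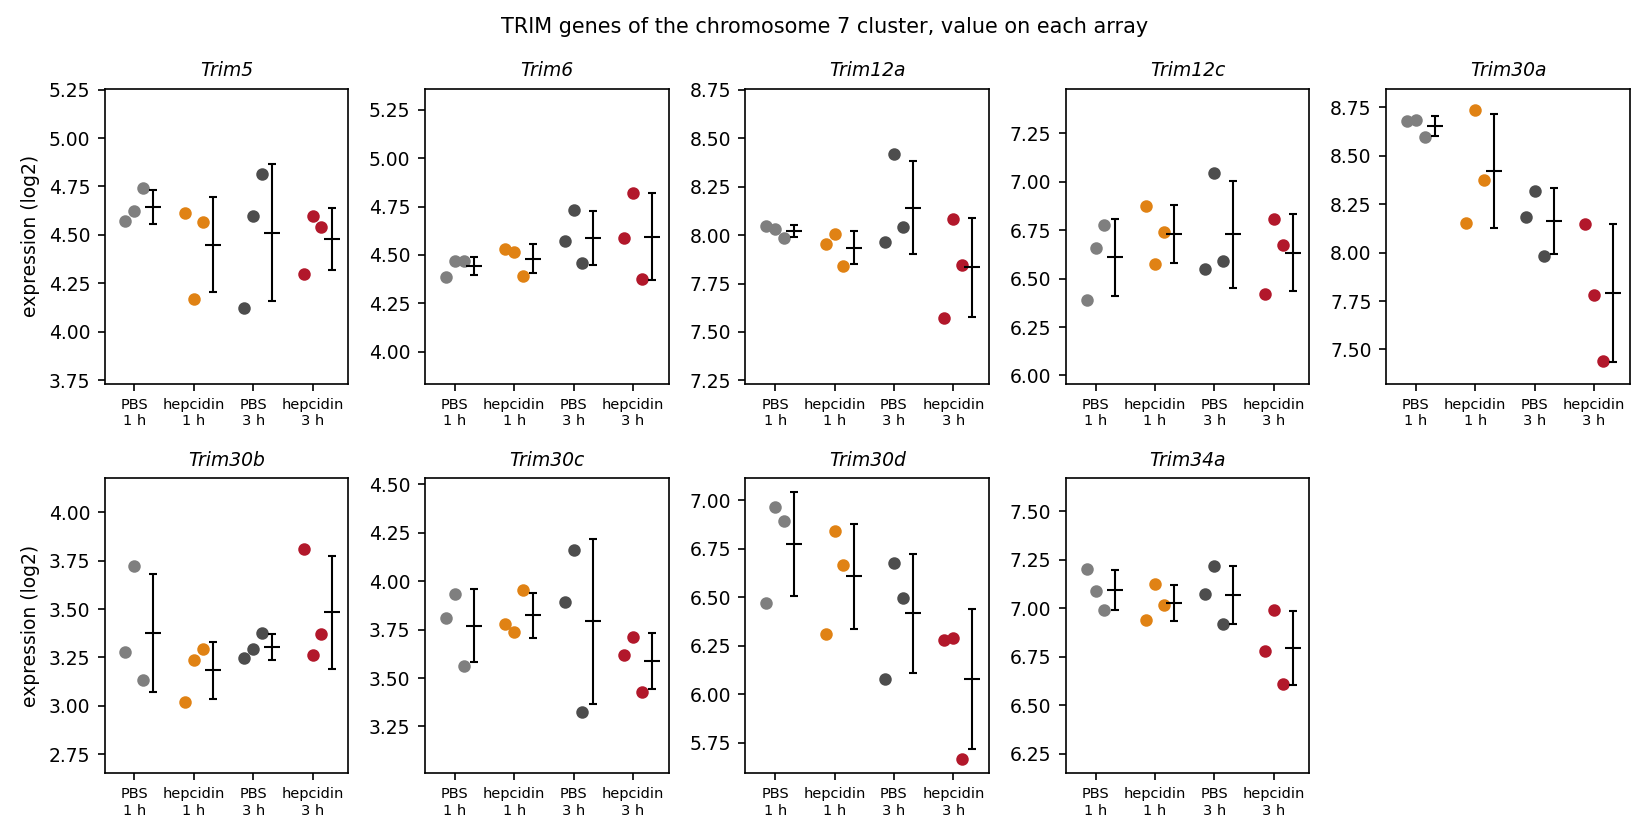
Log2 signal on each array for the 9 measured genes of the chromosome 7 cluster, by group; points are arrays, and bars the group mean with its SD, with a separate axis for each gene. Trim30a runs from 8.60 to 8.69 in PBS at 1 h to 7.44 to 8.15 in hepcidin at 3 h, and no gene of the cluster passed the threshold in the fit with 4 group means.

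The TIF1 genes encode chromatin cofactors with a PHD finger and a bromodomain. Trim24, a cofactor of nuclear receptors, read 7.45, 7.43 and 7.63 in PBS at 1 h, 7.69, 7.55 and 7.53 in hepcidin at 1 h, 7.37, 7.30 and 7.43 in PBS at 3 h, and 7.26, 7.31 and 7.28 in hepcidin at 3 h. Its 3 h hepcidin arrays lay below the 1 h hepcidin arrays and overlapped the 3 h PBS arrays. The fall between the hepcidin groups was 1.24-fold (-0.31, SE 0.08, adjusted p = 0.0337). Against PBS the differences were 0.09 at 1 h (adjusted p = 0.913) and -0.09 at 3 h (adjusted p = 0.632). The PBS groups differed by -0.13 (adjusted p = 0.597), and the interaction was -0.18 (adjusted p = 0.641). Without any 1 of the 6 hepcidin arrays the call between the hepcidin groups was lost (adjusted p 0.0605 to 0.115).

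Trim28, the corepressor that KRAB zinc finger proteins recruit, read 8.87, 8.83 and 8.91 in PBS at 1 h, 8.86, 8.87 and 8.80 in hepcidin at 1 h, 8.78, 8.67 and 8.71 in PBS at 3 h, and 8.74, 8.67 and 8.67 in hepcidin at 3 h. Both 3 h groups lay below both 1 h groups, by -0.15 for PBS (adjusted p = 0.368) and -0.15 for hepcidin (adjusted p = 0.228), and hepcidin differed from PBS by -0.03 at 1 h (adjusted p = 0.985) and -0.02 at 3 h (adjusted p = 0.906). Trim33, a ligase for SMAD4 in TGF-β signalling, read 8.00, 8.01 and 8.04 in PBS at 1 h, 8.17, 7.92 and 7.98 in hepcidin at 1 h, 8.02, 8.12 and 8.20 in PBS at 3 h, and 7.95, 7.99 and 7.80 in hepcidin at 3 h. Hepcidin lay below PBS at 3 h without overlap, by -0.20 (SE 0.08, adjusted p = 0.235), and at 1 h the difference was 0.01 (adjusted p = 0.997).

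Trim16, which has no RING finger and takes part in the removal of damaged lysosomes by autophagy, was the TRIM gene that fell most at 3 h. Its signal was 7.57, 7.46 and 7.41 in PBS at 1 h, 7.29, 7.39 and 7.22 in hepcidin at 1 h, 7.63, 7.61 and 7.37 in PBS at 3 h, and 7.02, 6.80 and 6.96 in hepcidin at 3 h. Hepcidin lay below PBS without overlap at both times, and the 3 h hepcidin arrays were the lowest of the 12. It fell 1.53-fold at 3 h (-0.61, SE 0.09, adjusted p = 0.00126), and at 1 h the difference was -0.18 (SE 0.09, adjusted p = 0.779). Between the hepcidin groups it fell by 0.37 on the log2 scale (adjusted p = 0.0325), and between the PBS groups it differed by 0.06 (adjusted p = 0.914). The call between the hepcidin groups was lost without any 1 of 6 arrays (PBS 1 h replicate 2, any hepcidin 1 h replicate, hepcidin 3 h replicate 2 or 3; adjusted p 0.0514 to 0.136).

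The other 8 ligases of its group, among them the centriole regulator Trim37, passed in no comparison, and differed by -0.17 (Trim41) to 0.17 (Trim7) at 3 h. None of the 7 microtubule-binding and NHL-repeat genes, 4 muscle genes and 14 germ cell, gut or red cell genes passed in any comparison. The 2 largest differences at 3 h that did not pass lay among them. Trim36, a ligase that binds microtubules, read 5.94, 5.70 and 5.62 in PBS at 1 h, 6.14, 5.92 and 5.83 in hepcidin at 1 h, 5.88, 5.64 and 5.69 in PBS at 3 h, and 6.31, 6.34 and 5.94 in hepcidin at 3 h. Hepcidin overlapped PBS at 1 h (0.21, adjusted p = 0.838) and lay above it at 3 h (0.46, SE 0.13, adjusted p = 0.057; 0.0172 without hepcidin 3 h replicate 3). Trim43a, below the array median on all arrays, differed by 0.43 at 3 h (SE 0.22, adjusted p = 0.37). At 1 h the largest differences that did not pass were those of Trim60 (0.36, SE 0.16, adjusted p = 0.722) and Trim40 (-0.31, SE 0.12, adjusted p = 0.628).

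**Figure D4:**
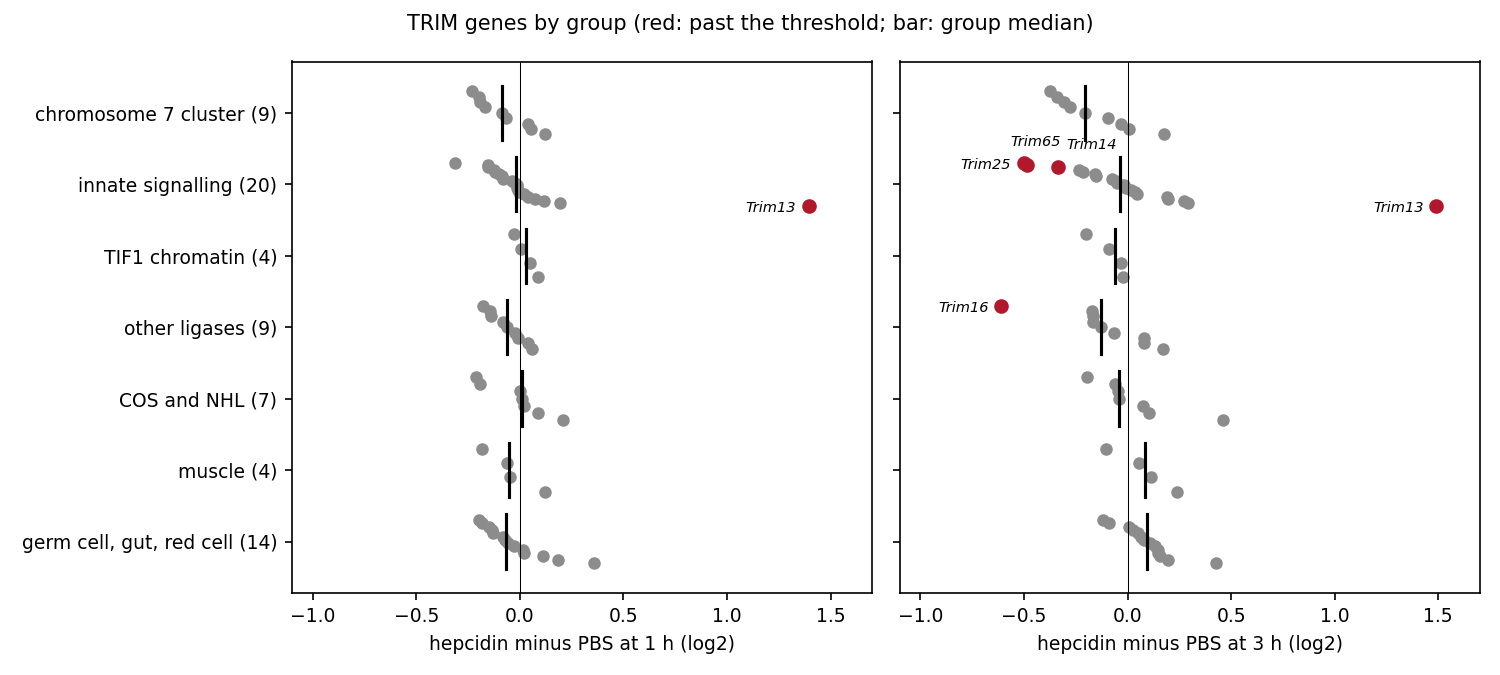
Hepcidin minus PBS (x axis, log2) at 1 h, left, and 3 h, right, for the 67 TRIM genes in 7 groups by known role, 1 point a gene, red past the limma threshold, with a bar for the group median. The calls fall among the innate signalling genes (Trim13 at both times; Trim14, Trim25 and Trim65 at 3 h) and the other ligases (Trim16 at 3 h).

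A few TRIM proteins carry other gene symbols. Mefv encodes pyrin, the sensor of an inflammasome. Its signal was 4.61, 4.62 and 4.86 in PBS at 1 h, 5.62, 5.40 and 5.46 in hepcidin at 1 h, 4.41, 4.57 and 4.87 in PBS at 3 h, and 5.85, 5.95 and 6.28 in hepcidin at 3 h. All 6 hepcidin arrays lay above all 6 PBS arrays, and the PBS means lay below the median gene, so only log2 differences are given: 0.79 at 1 h (SE 0.13, adjusted p = 0.0162) and 1.41 at 3 h (SE 0.13, adjusted p = 3.78e-05). The 1 h call was lost without PBS 1 h replicate 1 or 2 or hepcidin 1 h replicate 1 or 3 (adjusted p 0.0632 to 0.103), and the interaction was 0.62 (adjusted p = 0.234).

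Pml, the organiser of nuclear bodies, read 8.51, 8.43 and 8.42 in PBS at 1 h, 8.48, 8.50 and 8.43 in hepcidin at 1 h, 8.61, 8.49 and 8.35 in PBS at 3 h, and 8.15, 8.15 and 8.09 in hepcidin at 3 h. The 3 h hepcidin arrays were the lowest 3 of the 12. It fell 1.28-fold at 3 h (-0.35, SE 0.07, adjusted p = 0.013), and at 1 h the difference was 0.02 (adjusted p = 0.993). The 3 h call was lost without PBS 3 h replicate 1 or 2 or hepcidin 3 h replicate 3 (adjusted p 0.052 to 0.0543). Mid1 and Mid2 passed in no comparison.

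The sensors, adaptors and kinases on which TRIM ligases act gave 1 call of 20 measured genes at either time, the rise of Ikbke. Of all genes, 0.527% passed as higher at 1 h and 2.8% at 3 h. Ikbke encodes the kinase IKKε, which acts beside TBK1 on interferon regulatory factors. It read 7.20, 7.52 and 7.70 in PBS at 1 h, 8.01, 8.05 and 8.05 in hepcidin at 1 h, 7.59, 7.54 and 7.67 in PBS at 3 h, and 9.04, 9.22 and 9.20 in hepcidin at 3 h. The groups were apart at both times, by 0.56 at 1 h (SE 0.11, adjusted p = 0.0414) and 2.93-fold at 3 h (1.55, SE 0.11, adjusted p = 2.34e-06), and the interaction passed (0.99, SE 0.15, adjusted p = 0.00932). Its 1 h call was lost in 12 of 19 alternatives (adjusted p 0.0594 to 0.215), 10 of them fits without 1 array: PBS 1 h replicate 1 or 2, any hepcidin 1 h or PBS 3 h replicate, or hepcidin 3 h replicate 2 or 3. The sensor gene Ddx58, which encodes the RIG-I target of Trim25, differed by -0.08 at 3 h (adjusted p = 0.798), the adaptor gene Mavs by -0.24 (adjusted p = 0.052) and Sting1 by -0.19 (adjusted p = 0.276); these 3 were chosen after their values were seen. Between the hepcidin groups Dhx58 (-0.62, adjusted p = 0.0116) and Tab1 (-0.37, adjusted p = 0.0221) fell and Ikbke (1.12, adjusted p = 8.01e-05) and Ticam1 (0.43, adjusted p = 0.0457) rose. The PBS groups differed by -0.57 for Dhx58 (adjusted p = 0.0758) and -0.33 for Tab1 (adjusted p = 0.125), without overlap of their arrays, and by 0.24 for Ticam1 (adjusted p = 0.464). The interaction was -0.05 for Dhx58 (adjusted p = 0.962), -0.04 for Tab1 (adjusted p = 0.953) and 0.18 for Ticam1 (adjusted p = 0.762). Without hepcidin 1 h or 3 h replicate 3 the calls of Dhx58, Tab1 and Ticam1 were each lost (adjusted p 0.0536 to 0.173), as they were for Tab1 without hepcidin 1 h replicate 2 and for Ticam1 without any other hepcidin array or replicate 1 of either PBS group. The medians of the list were 0.0805 at 1 h and 0.106 at 3 h, against -0.00225 and 0.0159 over all genes.

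Of 9 measured genes of type I interferon and its transcription factors, 1 rose at 1 h and 3 rose at 3 h. The shares of all genes that rose were 0.527% at 1 h and 2.8% at 3 h. None of the 9 passed as lower, against 0.0324% of all genes at 1 h and 2.53% at 3 h. Irf1, a transcription factor of interferon responses, rose by 1.36 at 1 h (SE 0.09, adjusted p = 5.37e-06) and by 0.70 at 3 h (SE 0.09, adjusted p = 0.000538). The kinase gene Tyk2 rose by 0.44 at 3 h (adjusted p = 0.00563) and the receptor gene Ifnar1 by 0.27 (adjusted p = 0.044). The Ifnar1 call was lost without any 1 array other than hepcidin 3 h replicate 1 (adjusted p 0.0513 to 0.151). Ifnb1, which encodes interferon-β, lay below the array median on every array, which limits what could be seen of it. Its hepcidin difference was 0.03 at 1 h (adjusted p = 0.992) and 0.18 at 3 h (adjusted p = 0.353). At 3 h its hepcidin arrays lay above its PBS arrays without overlap. From hepcidin 1 h to hepcidin 3 h, Tyk2 rose (0.54, adjusted p = 0.00164). Irf1 (-0.65, adjusted p = 0.00121) and Irf9 (-0.49, adjusted p = 0.00507) fell there, beside 2.44% of all genes higher and 2.61% lower. The PBS groups differed by 0.09 for Tyk2 (adjusted p = 0.813), 0.02 for Irf1 (adjusted p = 0.982) and -0.17 for Irf9 (adjusted p = 0.524).

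Among 17 measured interferon-stimulated genes, 1 rose at 1 h and 5 rose at 3 h. The shares of all genes that rose were 0.527% at 1 h and 2.8% at 3 h. None of the 17 passed as lower, against 0.0324% of all genes at 1 h and 2.53% at 3 h. By sign, 10 of the 17 lay above PBS at 3 h and 7 below, from -0.41 to 2.95. Cxcl10, a chemokine gene, rose by 1.94 at 1 h (adjusted p = 0.000454) and by 2.95 at 3 h (adjusted p = 3.77e-06). At 3 h the antiviral genes Ifit1 (0.95, adjusted p = 0.0251), Rsad2 (0.85, adjusted p = 0.0381) and Mx2 (0.79, adjusted p = 0.046) rose as well, as did Parp14 (0.53, adjusted p = 0.00308). Single arrays decided 3 of these calls. That of Ifit1 was lost without PBS 3 h replicate 1 or 3 or hepcidin 3 h replicate 1 or 2 (adjusted p 0.0737 to 0.116), that of Rsad2 without any of these 4, the last hepcidin array of 3 h, hepcidin 1 h replicate 2 or PBS 1 h replicate 3 (0.0516 to 0.158), and that of Mx2 without any 1 h array, PBS 3 h replicate 1 or 3 or hepcidin 3 h replicate 2 or 3 (0.0537 to 0.177). The median of the list was 0.0333 at 1 h and 0.113 at 3 h, against those same medians over all genes. From hepcidin 1 h to hepcidin 3 h, Ifit1, Mx1, Rsad2, Parp14 and Cxcl10 rose. Usp18 (-0.66, adjusted p = 0.0354) and Oas3 (-0.50, adjusted p = 0.0302) fell there, beside 2.44% of all genes higher and 2.61% lower. The PBS groups differed by -0.60 for Usp18 (adjusted p = 0.158) and -0.22 for Oas3 (adjusted p = 0.579). The rises of Ifit1, Mx1 and Rsad2 were lost without some single hepcidin arrays (adjusted p 0.0573 to 0.133). Alternatives were not run for the calls of Usp18, Oas3 and Parp14 between the hepcidin groups. Of the TRIM genes whose ISRE stretches are printed above, none of those on chromosome 7 passed between hepcidin and PBS at either time, Trim21 rose between the hepcidin groups, and Trim25 fell at 3 h.

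Of 12 ubiquitin-conjugating enzymes that pair with TRIM ligases, 1 passed against PBS, as higher at 3 h only. Of all genes, 2.8% were called higher at 3 h. Ube2e2 read 6.83, 6.72 and 6.83 in PBS at 1 h, 6.66, 6.66 and 7.05 in hepcidin at 1 h, 6.67, 6.65 and 6.71 in PBS at 3 h, and 7.46, 7.61 and 7.71 in hepcidin at 3 h. The 3 h hepcidin arrays stood above all others, 1.88-fold over PBS (0.91, SE 0.10, adjusted p = 0.000152), and the interaction passed (0.92, SE 0.15, adjusted p = 0.0108). Ube2e2 also rose between the hepcidin groups (0.80, SE 0.10, adjusted p = 0.00062).

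**Figure D5:**
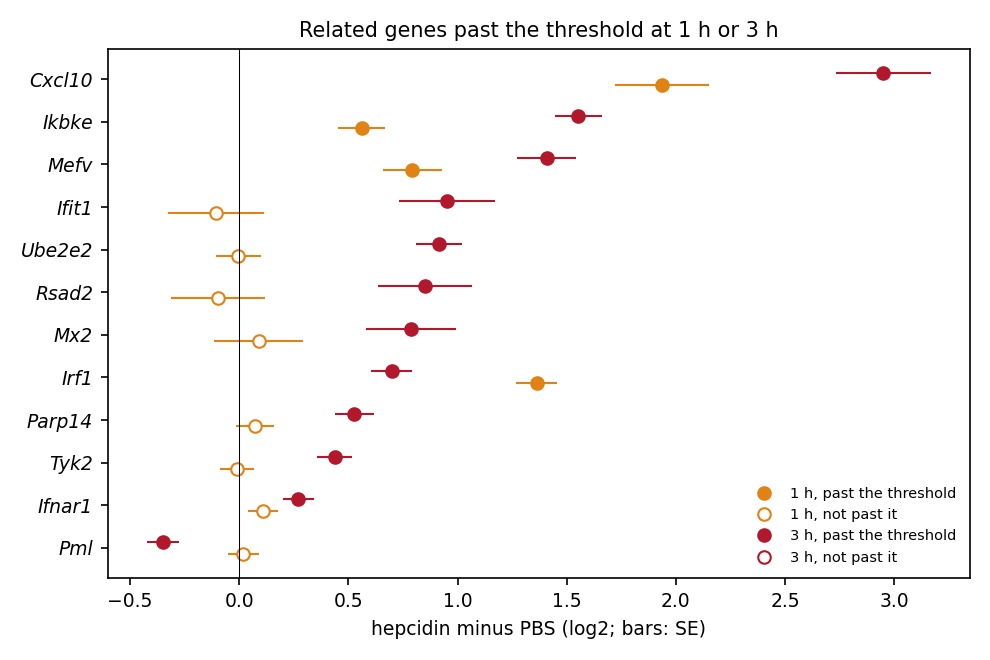
Hepcidin minus PBS (x axis, log2, bars for the standard error of limma's fit) at 1 h in orange and 3 h in red for genes of the related lists that passed the threshold at either time; filled points passed. Cxcl10 lies highest, at 1.94 and 2.95, Pml alone lies below 0 at 3 h, at -0.35, and Irf1 is higher at 1 h than at 3 h.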

How the data were processed

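RNA from 12 wells of macrophages was extracted with Trizol and, per the labels' protocols, labelled as biotinylated cDNA for an Affymetrix whole-transcript array. RMA and Partek are the tools in the submitters' processing notes, without versions; the authors deposited 1 normalized value per probe set and array, read here as log2 from its range. No genome build is named. Of 25429 probe sets, 24675 had 1 symbol in the platform annotation and were kept; 754 had none. Groups and times came from the sample titles.

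The log2 values were fitted with limma 3.58.1 in R 4.3.3 as 4 group means (8 residual degrees of freedom, prior 4.11) for 5 comparisons, each adjusted by Benjamini-Hochberg over all 24675 genes, with a threshold of 0.05. The fit was tested on simulated data. TRIM genes were named with every value where they passed, as were 10 genes picked by role. Of each other list, at most the 4 largest calls a comparison were named. Parp14, Oas3, Usp18, Mavs, Ddx58, Sting1, Ifnb1 and the genes overlapping TRIM genes were named outside this rule. No sequence of Trim36 is printed. The members and lists were chosen with earlier results of these data known. Promoter windows and overlaps are from RefSeq GRCm38.p6. Alternatives changed the prior, the probe sets, the samples in the fit, the normalization and a replicate block, and left out each array. The arrays' number limits the precision.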

Additional observations from a re-analysis of the deposited data

Results flagged for a closer look

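The hepcidin effect differed between 3 h and 1 h for 3 genes of the related lists, each by limma's interaction term with its adjusted p over all genes. For Ikbke the difference of the log2 effects was 0.991 (SE 0.153, adjusted p = 0.00932), from 0.561 at 1 h to 1.55 at 3 h, and it passed in all 18 alternatives (adjusted p up to 0.0403). For Ube2e2 it was 0.919 (SE 0.147, adjusted p = 0.0108), from -0.00487 to 0.914, and it also passed in all 18 (adjusted p up to 0.0428). For Irf1 it was -0.664 (SE 0.13, adjusted p = 0.0323), from 1.36 to 0.697, and it was lost in 10 of 18 alternatives, among them the fits without any 1 of the 3 arrays of PBS 1 h, hepcidin 1 h or PBS 3 h (adjusted p 0.0671 to 0.102). No TRIM gene passed this test in limma, with 6 at an unadjusted p under 0.05.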

How the results depend on the processing

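The TRIM counts, the TRIM calls and most other named calls were computed under 19 alternatives. There were 18 for the interaction, and for Mx2 and Kcnrg at 3 h, which the fit of only genes above the median mean omitted. The calls of Usp18, Oas3 and Parp14 between the hepcidin groups and those of the cell type markers were not computed under alternatives. The count of TRIM genes at 1 h was 1 in all alternatives, and that at 3 h lay between 4 and 7. The count between the PBS groups moved from 0 to 1 with a trended and robust prior and with only genes above the median mean (0 to 1 when each array was left out). The count between the hepcidin groups moved from 6 to 3 with an unmoderated model and to 2 with only those groups in the fit (2 to 6 when each array was left out). The interaction count moved from 0 to 1 with a trended and robust prior, an unmoderated model and only genes above the median mean. Of the 12 TRIM calls, 7 were kept in all alternatives: Trim13 at both times, Trim16, Trim25 and Trim65 at 3 h, and Trim21 and Trim25 between the hepcidin groups. The other 5 were lost in 47 of their fits; none of the 12 reversed. Fewer arrays or fewer samples are part of many of these fits; beyond that, the cause was not tested. Against PBS at 3 h, Trim36 passed with the replicate block, a trended and robust prior, only genes above the median mean or hepcidin 3 h replicate 3 left out (adjusted p 0.00849 to 0.0457), Trim56 with only genes above the median mean (0.0409) or without hepcidin 3 h replicate 1 (0.0484), and Trim8 with the unmoderated model (0.00327).

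No label says that the replicate number pairs the arrays, and the main fit did not use it. Deviations from the group means correlated at -0.00542 to 0.246 (median 0.105) for the same number, over 0.1 in 9 of 18 pairs. For different numbers they correlated at -0.219 to 0.174 (median -0.037), over 0.1 in 1 of 36 pairs. Every array correlated best on average with its own number, a hint of pairing from the data and not from the design. With the replicate block the counts were 1 at 1 h, 6 at 3 h, 0 between the PBS groups, 6 between the hepcidin groups and 0 for the interaction; Trim13 kept 1.39 at 1 h (adjusted p = 0.00184), and the fall of Trim65 between the hepcidin groups was lost (adjusted p = 0.0555) while that of Trim30a passed (adjusted p = 0.0435). Dim probe sets, 26 TRIM genes below the array median on all 12 arrays, limit what could be seen of those genes.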
